A study of Saccharomyces cerevisiae with 6 samples.

Results

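The yeast 35S rRNA gene carries the 5.8S coding region and, directly after it, the second internal transcribed spacer (ITS2). All 390 positions that the deposited table assigns to these 2 regions were taken, of 6858 positions of the whole gene. The 158 positions of 5.8S and the 232 of ITS2 are numbered here from 1 in each region in the direction of transcription. In the genome assembly R64, 5.8S (annotated as RDN58-2) occupies chromosome XII 464551 to 464708, minus strand, and ITS2 from 464319 to 464550. Both are parts of RDN37-2. RDN37-1, the other annotated copy of the gene, lies from 451575 to 458432 on the same strand and differs from RDN37-2 at 0 bases. The table therefore holds both copies together.

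Pol I makes one long precursor that contains 18S, 5.8S and 25S rRNA, separated and flanked by spacers that are removed later. 5.8S rRNA becomes part of the large ribosomal subunit, where it is base-paired with 25S rRNA. ITS2 holds the cleavage that separates these RNAs, made by the endonuclease Las1. That cleavage leaves a 5.8S precursor called 7S, which in yeast extends about 140 nucleotides into ITS2. The RNA exosome and later nucleases shorten it, by way of an intermediate with about 30 nucleotides of ITS2 (5.8S+30) and one with 5 to 8 (6S), to the mature 3′ end. Spt4 forms a complex with Spt5 that binds elongating RNA polymerases.

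NET-seq maps the 3′ ends of RNA that is purified with the polymerase, so each read marks the last nucleotide of one such RNA. Pol I was purified from 3 WT and 3 *spt4△* cultures, described as biological triplicates and grown at 30 °C to an optical density of 0.3. Both strains carry ade2-1, his3-11,15, leu2-3,112, can1-100, trp1-1 and ura3-1, and both have the (HA)3-(His)7 tag on the Pol I subunit gene RPA135. The tag marker is TRP1mx6 in WT and URA3mx6 in *spt4△*. WT also has its chromosomal RPA190 replaced by HIS3Mx6 and is kept alive by RPA190 on the plasmid pRS315, whereas in *spt4△* the SPT4 gene is replaced by HIS3. The loss of Spt4 and these other differences between the strains cannot be told apart. Occupancy is given in rpm, that is reads per 1000000 reads of the gene in the same library, so a value is relative to the rest of the gene and not an absolute number of polymerases.

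Depth differed between the strains. The WT libraries held 5545592 to 10024580 reads over the gene, and the *spt4△* libraries 307372 to 482329. The median 5.8S position had 892 to 1449.5 reads per library in WT and 42 to 62.5 in *spt4△*, and the median ITS2 position 83 to 165 reads against 5.5 to 9. A value of 3 reads, taken as the floor, corresponds to 0.299 to 0.541 rpm in WT and to 6.22 to 9.76 rpm in *spt4△*. In the *spt4△* libraries 39 to 57 of the 390 positions had fewer than 3 reads, most of them in ITS2. The 30 nucleotides ending at each of the 390 positions were found at 0 places in the genome outside the 2 gene copies. None of the 390 positions is followed by all 7 fixed letters of the start of the ligated linker (0 of 390).

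The RNA around the mature 5.8S 3′ end is shown first, because the highest occupancy of both regions lies there. Capitals mark the last 2 nucleotides of 5.8S and the first of ITS2, at which no library had a read (chromosome XII 464531 to 464570, minus strand).
mature end: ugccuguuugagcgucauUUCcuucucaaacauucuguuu

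Across 5.8S, occupancy began low, climbed steeply and ended in the highest peak of both regions. Mean occupancy per position was 248, 249 and 235 rpm in the WT libraries and 181, 189 and 190 rpm in *spt4△*. The *spt4△* libraries all lay below the WT libraries. The median position was closer between the strains, at 145, 161 and 145 rpm in WT and 125, 142 and 137 rpm in *spt4△*. Position 1, an A, had 2.10, 1.62 and 2.61 rpm in WT and 4.15, 0 and 6.51 rpm in *spt4△*, where the 3 libraries together held 4 reads. The ratio of *spt4△* to WT there was 1.5 with a 95% counting interval of 0.394 to 4.07, so no difference was detectable at this depth. The medians of both strains stayed at or below 13.7 rpm over the first 9 positions and then rose to 479 rpm in WT and 485 rpm in *spt4△* at position 16.

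**Figure D1:**
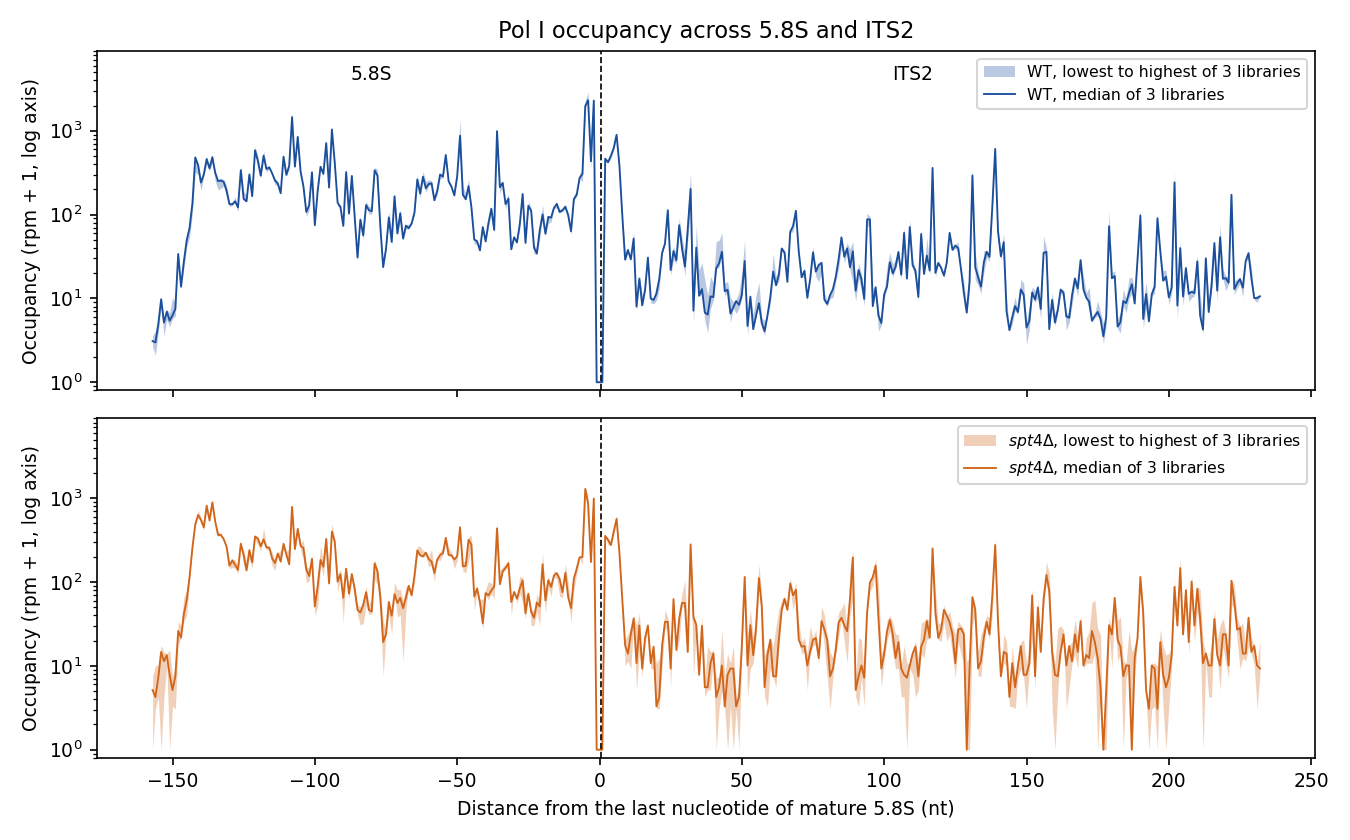
Occupancy at each position of 5.8S and ITS2, as rpm plus 1 on a log axis, against the distance from the last nucleotide of mature 5.8S (dashed line at the boundary), for WT above and *spt4△* below. Lines are medians and shaded bands the lowest to highest of 3 libraries. Both strains show the low start of 5.8S, the peak at its 3′ end, the gap of 3 positions without reads, and a lower, spiky profile in ITS2, where the *spt4△* bands are wider.

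The 5 highest 5.8S positions in WT were 154 (C), 156 (U), 153 (U), 50 (C) and 64 (U), ordered by the median of 3 libraries. Position 50 had 1448, 1647 and 1452 rpm in WT and 796, 711 and 788 rpm in *spt4△* (log2 change of −0.98, standard error 0.13, adjusted p = 0.00013). Position 64 had 1034, 1086 and 1029 rpm in WT and 386, 399 and 498 rpm in *spt4△* (log2 change of −1.30, standard error 0.13, adjusted p = 1.81e-05). The WT and *spt4△* libraries did not overlap at either position. In *spt4△* the 5 highest in the same order were 153, 156, 22 (U), 154 and 20 (U). Positions 20 and 22, near the 5′ end, were thus among the 5 highest, and positions 50 and 64 were not. Position 20 had 402, 479 and 459 rpm in WT and 815, 823 and 726 rpm in *spt4△*. Position 22 had 408, 483 and 491 rpm in WT and 892, 795 and 911 rpm in *spt4△*.

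At the 3′ end of 5.8S, 4 positions formed the highest peak of both regions, and all 4 were lower in *spt4△*. Position 153 (U) had 2277, 1972 and 1875 rpm in WT and 1093, 1292 and 1367 rpm in *spt4△*. At position 154 (C), the highest of all 390 in WT, the values were 2883, 2314 and 2244 rpm in WT and 1068, 852 and 814 rpm in *spt4△*. The A at position 155 stood out as a dip in both strains, with 473, 431 and 354 rpm in WT and 197, 164 and 172 rpm in *spt4△*. Position 156 (U) had 2484, 2286 and 1884 rpm in WT and 931, 991 and 1019 rpm in *spt4△*. The strains overlapped at none of these positions, and the log2 changes were −0.71, −1.44, −1.23 and −1.17 with standard errors of 0.16, 0.17, 0.13 and 0.15. The adjusted p-values were 0.00389, 5.86e-05, 3.51e-05 and 0.000135. The order of the peaks also differed, since position 154 was highest in all 3 WT libraries and position 153 in all 3 *spt4△* libraries. At these 4 positions the data do not separate 3′ ends of nascent RNA from those of processed 5.8S RNA.

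Of the 4 positions just before this peak, 3 were called lower in *spt4△*. Position 149 (A) had a log2 change of −0.66, position 151 (C) −0.54 and position 152 (G) −0.61, with adjusted p-values of 0.00668, 0.00196 and 0.00537. Position 150 (G) was not called, with 186, 171 and 166 rpm in WT and 124, 144 and 166 rpm in *spt4△* (adjusted p = 0.12). Of 14 alternatives, 3 called it lower. Its adjusted p was 0.037 without *spt4△* replicate 3, 0.0302 scaled to the median position and 0.0412 by edgeR with its own scaling factors. Scaled to the sum over 5.8S and ITS2, the calls at positions 149, 151 and 152 and at the peak position 153 were lost (adjusted p = 0.103, 0.133, 0.121 and 0.0686). The 10 last positions of 5.8S held 23.2%, 20.1% and 19.4% of the 5.8S reads in WT and 13.5%, 13.2% and 13.5% in *spt4△*. This is 20.9 ± 2.05% against 13.4 ± 0.139% (SD, n = 3 each), with a two-sided exact permutation p of 0.1, the smallest that 3 against 3 libraries allow. The difference of −7.51 points was −1.22 points without the top 0.5% of positions of the gene, which include positions 153, 154 and 156 (exact permutation p = 0.1).

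Reads were found at 0 of 3 positions spanning the boundary (157 and 158 of 5.8S and 1 of ITS2) in all 6 libraries, although occupied positions lay on both sides. At the ends of 18S and of 25S, too, 3 consecutive positions had no read. The methods of the study describe no removal of these positions, and the reason was not tested. The 4 positions before the gap stood at 10.9 to 14.0 times the region's median position in WT and at 5.79 to 6.55 times in *spt4△*. For 18S the same ratio was 7.79 to 13 in WT and 9.78 to 10.6 in *spt4△*, and for 25S 17.6 to 24.0 and 11.6 to 14.1. The log2 ratio of *spt4△* to WT for the mean of these 4 positions was −1.11 at 5.8S, 0.31 at 18S and −0.63 at 25S. Whether the ends differ from each other was not tested.

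**Figure D2:**
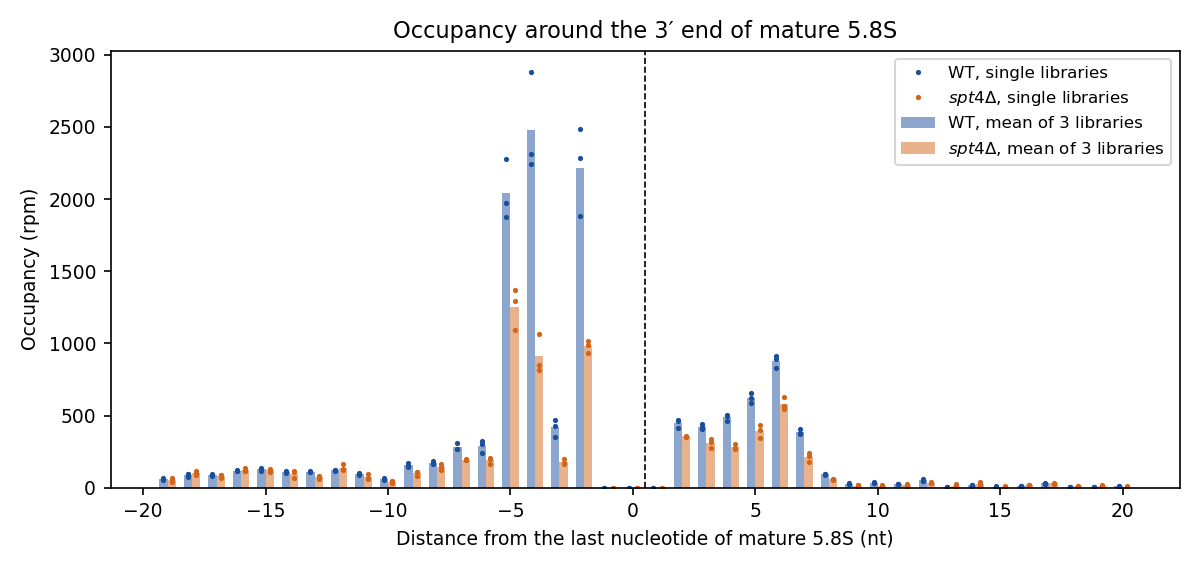
Occupancy in rpm on a linear axis for the last 20 positions of 5.8S and the first 20 of ITS2, against the distance from the last nucleotide of mature 5.8S. Bars are means of 3 libraries and dots single libraries of WT and *spt4△*. The 4 peak positions before the gap and the first positions of ITS2 with reads are higher in WT than in *spt4△*, and the gap is empty in both strains.

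ITS2 opened with a short high stretch that reaches into the nominal range of the 6S ends. Its position 2 (C) had 473, 416 and 463 rpm in WT and 355, 358 and 355 rpm in *spt4△*, and position 3 (U) had 422, 410 and 442 rpm against 317, 335 and 277 rpm. At position 4 (U) occupancy came to 500, 465 and 505 rpm in WT and 276, 271 and 303 rpm in *spt4△*, and at position 5 (C) it was 621, 587 and 656 rpm against 400, 435 and 348 rpm. The peak of this stretch, and of ITS2 in all 6 libraries, was position 6 (U), with 912, 828 and 894 rpm in WT and 566, 629 and 547 rpm in *spt4△*. WT and *spt4△* did not overlap at any of these 5 positions. Occupancy then fell from 405, 382 and 375 rpm in WT at position 7 (C) to 97.5, 91.1 and 99.2 rpm at position 8 (A). In *spt4△* the step was from 239, 221 and 179 rpm to 51.9, 63.8 and 61.8 rpm.

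All 9 positions from 2 to 10 of ITS2 were called lower in *spt4△*, with log2 changes between −0.34 at position 2 and −1.25 at position 10. Position 9 (A) had 35.1, 26.2 and 28.0 rpm in WT and 16.6, 9.12 and 19.5 rpm in *spt4△*, and position 10 (A) had 36.8, 37.0 and 34.6 rpm against 10.4, 22.8 and 13 rpm. The call at position 2 (adjusted p = 0.0199) was lost without WT replicate 1 (adjusted p = 0.0769) and without WT replicate 3 (0.0578). That at position 9 (adjusted p = 0.031) was lost without WT replicate 1, 2 or 3 (0.146, 0.0771 and 0.0787) and without *spt4△* replicate 2 (0.0694). Scaled to the sum over 5.8S and ITS2, positions 2, 3, 6, 8 and 9 lost their calls (adjusted p = 1.00, 0.382, 0.077, 0.0861 and 0.116), and the log2 change at position 2 was −8.48e-06. Positions 2 to 7 together held 32.3 ± 2.36% of the ITS2 reads in WT and 23.8 ± 0.227% in *spt4△* (SD, n = 3 each; a stretch chosen after its values were seen). The 6 positions after the gap stood at 3.20 to 3.84 times the median 5.8S position in WT and 2.45 to 2.86 times in *spt4△*. The 6 after the 18S gap were at 0.150 to 0.190 and 0.164 to 0.258 times the 18S median, and the 6 after the 25S gap at 0.450 to 0.561 and 0.650 to 0.821 times the 25S median.

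Beyond its start, ITS2 was low, with single high positions. Its mean occupancy came to 41.6, 41.0 and 48.1 rpm in WT and 38.7, 40.6 and 36.8 rpm in *spt4△*. The median position stood at 14.9, 15 and 18.7 rpm in WT and at 18.7, 18.2 and 17.9 rpm in *spt4△*, so the strains overlapped. From position 13 to the last, at 232, the mean came to 30.0 ± 3.88 rpm in WT and 30.4 ± 1.51 rpm in *spt4△* (SD, n = 3 each). The last position, an A, had 9.58, 9.56 and 9.99 rpm in WT and 8.30, 6.84 and 19.5 rpm in *spt4△* and was not called (adjusted p = 0.867).

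Near the nominal 7S end, the highest position in both strains was 139 (A), also the highest WT position of ITS2 after the opening stretch. It had 579, 606 and 668 rpm in WT and 276, 276 and 325 rpm in *spt4△*, without overlap (log2 change of −1.08, standard error 0.12, adjusted p = 3.3e-05). Position 139 stood at 35.7 to 40.5 times the median ITS2 position in WT and at 14.8 to 18.2 times in *spt4△*. Near the nominal 5.8S+30 end, the highest position in both strains was 32 (A). It had 129, 201.3 and 314 rpm in WT and 189, 314 and 280 rpm in *spt4△*. The strains overlapped there and the WT libraries differed among themselves (log2 change of 0.34, standard error 0.28, adjusted p = 0.336). For these 2 sites and position 6 of ITS2, the file does not separate 3′ ends of nascent RNA from those of a processed precursor.

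As shares of the whole gene, 5.8S took fewer reads in *spt4△*, and ITS2 only slightly fewer. 5.8S held 3.92%, 3.93% and 3.71% of the reads in WT and 2.85%, 2.98% and 3.00% in *spt4△* (3.85 ± 0.126% against 2.95 ± 0.0815%, SD, n = 3 each). ITS2 held 0.964%, 0.951% and 1.1% in WT and 0.897%, 0.942% and 0.852% in *spt4△* (1.01 ± 0.0921% against 0.897 ± 0.0448%). The strains did not overlap in either share, and both differences had an exact permutation p of 0.1, the smallest possible. Wilson 95% intervals of single libraries were at most ± 0.0162 points in WT and ± 0.0604 points in *spt4△*. They cover counting error only. For ITS2, the interval of *spt4△* replicate 2, 0.914 to 0.971%, took in the lowest WT share. The exact permutation p of the ITS2 difference was 0.3, 0.2 and 0.4 without *spt4△* replicate 1, 2 or 3. It was 0.2 without the top 0.5% of positions and stayed 0.1 without WT replicate 1 or 2. The 5.8S difference of −0.905 points was −0.434 points without the top 0.5% of positions of the gene and −0.531 points without 10 positions on each side of each region boundary. That of ITS2, −0.113 points, was −0.0603 points without WT replicate 3 (exact permutation p = 0.2) and −0.00631 points (p = 1) without the boundary positions.

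Set against the other rRNA regions, 5.8S was lower in *spt4△*. The mean 5.8S position stood 0.48 ± 0.039 above the mean 18S and 25S position on the log2 scale in WT and 0.11 ± 0.044 above it in *spt4△* (SD, n = 3 each), without overlap (exact permutation p = 0.1). This difference of −0.37 was −0.18 without the top 0.5% of positions and −0.24 without the boundary positions. ITS2 stood 1.00 ± 0.084 above ITS1, the spacer before 5.8S, in WT and 0.53 ± 0.077 above it in *spt4△*, again without overlap (exact permutation p = 0.1). By medians over positions in place of means, that difference shrank from −0.46 to −0.06, with an exact permutation p of 0.8, and without the boundary positions it was −0.31. Between the regions themselves, the log2 ratio of 5.8S to ITS2 was 2.58, 2.60 and 2.28 in WT and 2.22, 2.22 and 2.37 in *spt4△*, so the strains overlapped (exact permutation p = 0.2). With 10 such values compared, the Benjamini-Hochberg adjusted value was 0.125 for each p of 0.1 and 0.222 for this one.

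Reads were spread more evenly within each region in *spt4△*. The 10 highest positions of each library held 37.4%, 33.6% and 33.1% of the 5.8S reads in WT and 27.4%, 26.2% and 26.2% in *spt4△* (a difference of −8.12 points). For ITS2 they held 48.5%, 48.3% and 45.1% in WT and 33.6%, 35.4% and 35.7% in *spt4△* (a difference of −12.4 points). Neither pair overlapped (exact permutation p = 0.1 each). Without the top 0.5% of positions of the gene, the 5.8S difference was −0.841 points (exact permutation p = 0.5), and without the boundary positions the differences were −2.78 and −8.17 points. The first 79 positions of 5.8S held 47.9%, 52.5% and 52.9% of its reads in WT and 57.8%, 56.1% and 57.5% in *spt4△* (exact permutation p = 0.1). This difference of 6.0 points fell to 2.85 points without the top 0.5% of positions and to 1.33 points (exact permutation p = 0.4) without 10 positions on each side of the boundaries. In ITS2 the first 116 positions held 62.1 ± 1.82% in WT and 61.1 ± 1.31% in *spt4△*, with overlap (exact permutation p = 0.5). There, leaving out the same boundary positions turned the difference of −1.08 points into 6.14 points (exact permutation p = 0.1).

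Single positions were compared by limma over the 6848 positions of the gene with a read in at least 1 library, 387 of the 390 among them. In 5.8S, 22 of 156 tested positions (14.1%) were higher in *spt4△* and 60 (38.5%) lower, whereas of all tested positions of the gene 25.2% were higher and 21% lower. In ITS2, 41 of 231 (17.7%) were higher and 56 (24.2%) lower. The share lower in 5.8S thus lay above that of the gene and the share higher below it in both regions, while the share lower in ITS2 was near that of the gene. By a plain comparison of ranges, 32 positions of 5.8S lay higher in all *spt4△* than in all WT libraries and 67 lower, and in ITS2 51 lay higher and 65 lower. Over the gene these were 30.7% and 25.9% of positions. The median log2 change was −0.27 over 5.8S, −0.03 over ITS2 and 0.08 over all tested positions.

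These counts are relative to the rest of the gene. Scaling the libraries to the sum over 5.8S and ITS2 moved the median log2 change of all positions from 0.08 to 0.41, and then 51 positions of 5.8S were higher and 32 lower, and 58 of ITS2 higher and 31 lower, beside 3095 higher and 804 lower of the 6848 positions of the gene. The median log2 change of 5.8S then became 0.06 in place of −0.27, and in ITS2 it became 0.26 in place of −0.03. Scaling to the median position moved the median log2 change of all positions to −0.05. That of 5.8S became −0.39 and that of ITS2 −0.16. Then 16 positions of 5.8S were higher and 68 lower, and 41 of ITS2 higher and 64 lower, beside 1365 and 1781 in the gene. The count of 22 higher in 5.8S was 13 without WT replicate 1. Without WT replicate 1, 2 or 3, the 56 lower in ITS2 became 34, 35 and 31.

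**Figure D3:**
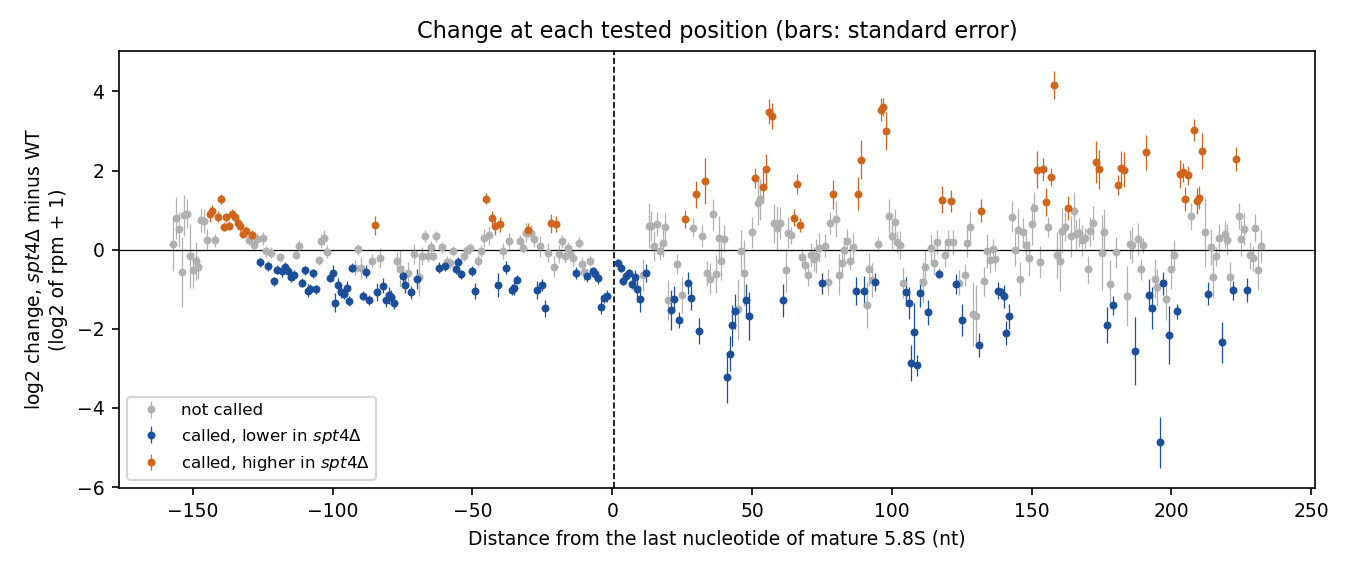
Log2 change of occupancy (*spt4△* minus WT, on log2 of rpm plus 1) at each of the 387 tested positions against the distance from the last nucleotide of mature 5.8S, with standard errors as bars and colours for the limma call. Called rises gather near the 5′ end of 5.8S. Falls are more frequent than rises at the start of ITS2 and over the rest of 5.8S (55 against 8 of 116 positions). That rest begins at a cut chosen with the values in view. Both directions alternate over the remainder of ITS2 with larger sizes.

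Within 5.8S the calls were ordered along the RNA. The first 40 positions held 14 of the 22 higher and 5 of the 60 lower calls, and the other 116 tested positions 8 and 55. This cut was chosen with the values in view. The longest run of one direction was 11 higher positions from 17 to 27. Next were 9 lower positions from 57 to 65. The sequence of 5.8S is shown with the higher positions in capitals, then with the lower ones (chromosome XII 464551 to 464708, minus strand), because the calls form these blocks.
5.8S, higher: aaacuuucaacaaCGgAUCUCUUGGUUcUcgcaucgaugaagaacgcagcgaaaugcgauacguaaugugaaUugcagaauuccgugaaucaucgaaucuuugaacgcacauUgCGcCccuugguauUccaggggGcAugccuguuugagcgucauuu
5.8S, lower: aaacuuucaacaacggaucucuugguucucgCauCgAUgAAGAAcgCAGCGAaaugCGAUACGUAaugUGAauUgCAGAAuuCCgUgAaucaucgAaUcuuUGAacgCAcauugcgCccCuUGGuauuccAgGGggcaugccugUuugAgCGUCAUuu

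Among 5.8S positions whose mean over the 6 libraries lies above the region's median, and which were called without overlap between the strains, the largest rises were at 113, 18, 15, 22 and 17. Position 113 (U), the one away from the 5′ block, had 109, 124 and 122 rpm in WT and 357, 278 and 247 rpm in *spt4△* (log2 change of 1.29, standard error 0.15, adjusted p = 4.63e-05). Position 18 (U) had 193, 240 and 248 rpm in WT and 585, 551 and 508 rpm in *spt4△* (1.27, standard error 0.12, adjusted p = 1.85e-05). At position 15 (G) the values were 104, 151 and 136 rpm in WT and 257, 244 and 267 rpm in *spt4△*. Position 17 (A) had 298, 387 and 409 rpm in WT and 589, 720 and 631 rpm in *spt4△*. Positions 113 and 15 lay below the median 5.8S position in every WT library, so they passed the minimum on occupancy through their *spt4△* values. Over positions 16 to 29 together, a stretch chosen after its values were seen, the mean came to 253, 308 and 308 rpm in WT and 467, 471 and 456 rpm in *spt4△*, and 12 of 14 positions were called higher.

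The largest falls in 5.8S by the same rule were at positions 154, 80, 64, 71 and 155. Position 80 (A) had 274, 290 and 345 rpm in WT and 91.3, 134 and 137 rpm in *spt4△* (log2 change of −1.34, standard error 0.17, adjusted p = 9.12e-05). Position 71 (A) had 300, 258 and 288 rpm in WT and 102, 125 and 124 rpm in *spt4△* (−1.27, standard error 0.13, adjusted p = 2.31e-05). Positions 80 and 71 lay at or below the median 5.8S position in every *spt4△* library, so they passed the minimum on occupancy through their WT values. From position 30 to 148, a stretch chosen after its values were seen that leaves out the rises at the start and the 10 last positions, mean occupancy was 221, 224 and 212 rpm per position against 148, 157 and 160 rpm in *spt4△*, with 53 of 119 positions lower and 8 higher.

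ITS2 held the largest changes of the 390 positions in both directions. Its sequence is shown with the higher positions in capitals and then with the lower ones (chromosome XII 464319 to 464550, minus strand), because here single nucleotides and short groups moved in opposite directions.
ITS2, higher: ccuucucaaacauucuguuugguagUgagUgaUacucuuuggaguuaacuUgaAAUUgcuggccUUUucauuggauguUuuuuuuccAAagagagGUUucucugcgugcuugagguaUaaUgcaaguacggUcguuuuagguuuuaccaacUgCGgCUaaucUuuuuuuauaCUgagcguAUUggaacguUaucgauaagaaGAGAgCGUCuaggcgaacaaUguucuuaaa
ITS2, lower: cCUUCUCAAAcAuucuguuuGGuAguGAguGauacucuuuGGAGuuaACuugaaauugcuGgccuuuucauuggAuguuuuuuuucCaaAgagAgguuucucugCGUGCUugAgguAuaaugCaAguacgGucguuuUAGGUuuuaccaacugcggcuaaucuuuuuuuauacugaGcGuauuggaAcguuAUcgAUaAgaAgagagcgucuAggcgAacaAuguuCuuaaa

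By the same rule, the largest rises in ITS2 were at positions 158, 97, 96, 56 and 57, each below the median ITS2 position in all 3 WT libraries. Position 158 (U) had 3.29, 3.07 and 4.54 rpm in WT and 127, 77.5 and 55.3 rpm in *spt4△* (log2 change of 4.17, standard error 0.35, adjusted p = 7.61e-06). Position 97 (U) had 12.6, 10.1 and 12.9 rpm in WT and 131, 185 and 156 rpm in *spt4△* (3.61, standard error 0.23, adjusted p = 1.36e-06). The G before it, position 96, had 7.08, 7.03 and 12.1 rpm against 129, 114 and 87.9 rpm. Positions 56 and 57, also neighbours and both U, had 7.48, 7.76 and 14.5 rpm and 4.09, 3.43 and 4.88 rpm in WT. In *spt4△* they had 89.2, 162 and 111 rpm and 70.5, 50.1 and 39.1 rpm. They passed the rule's minimum on occupancy through their *spt4△* values, and the rule itself requires that the strains do not overlap.

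The largest falls in ITS2 by this rule were at 196, 109, 107, 131 and 218. At 196, 109 and 107, every *spt4△* library lay below its median ITS2 position, and at 218 all but *spt4△* replicate 3 did. These positions passed the rule's minimum on occupancy through their WT values, and the rule itself requires that the strains do not overlap. Position 196 (A) had 88.0, 89.3 and 96.2 rpm in WT and 2.07, 9.12 and 0 rpm in *spt4△*. The *spt4△* values are 5 reads in all, against 2225 in WT. The ratio of *spt4△* to WT from these pooled reads was 0.0446 with a 95% counting interval of 0.0145 to 0.104. Position 109 (C) had 86.9, 70.0 and 69.9 rpm in WT and 8.30, 9.12 and 9.76 rpm in *spt4△* (log2 change of −2.92, standard error 0.26, adjusted p = 9.32e-06). Position 107 (U) had 69.2, 51.9 and 59.5 rpm against 16.6, 6.84 and 3.25 rpm. These *spt4△* values lie close to the floor of 3 reads.

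Position 131 (G), a peak in WT, had 205, 292 and 346 rpm there and 29, 68.4 and 65.1 rpm in *spt4△* (log2 change of −2.42, standard error 0.30, adjusted p = 8.45e-05). Position 218 (A) had 50.8, 52.7 and 73.4 rpm in WT and 4.15, 9.12 and 29.3 rpm in *spt4△*. At 1 position, 177 of ITS2, all *spt4△* libraries had 0 reads, and WT had 1.90, 2.53 and 4.09 rpm. That is under the *spt4△* floor, so this fall, though called, gives no fold. The surroundings of the largest rise, the largest fall and the highest position near the nominal 7S end are shown with the last nucleotide in capitals.
ITS2 position 158: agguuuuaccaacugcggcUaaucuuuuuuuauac
ITS2 position 196: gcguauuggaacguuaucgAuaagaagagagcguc
ITS2 position 139: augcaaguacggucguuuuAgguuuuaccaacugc
They lie on chromosome XII at 464378 to 464412, 464340 to 464374 and 464397 to 464431, minus strand.

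**Figure D4:**
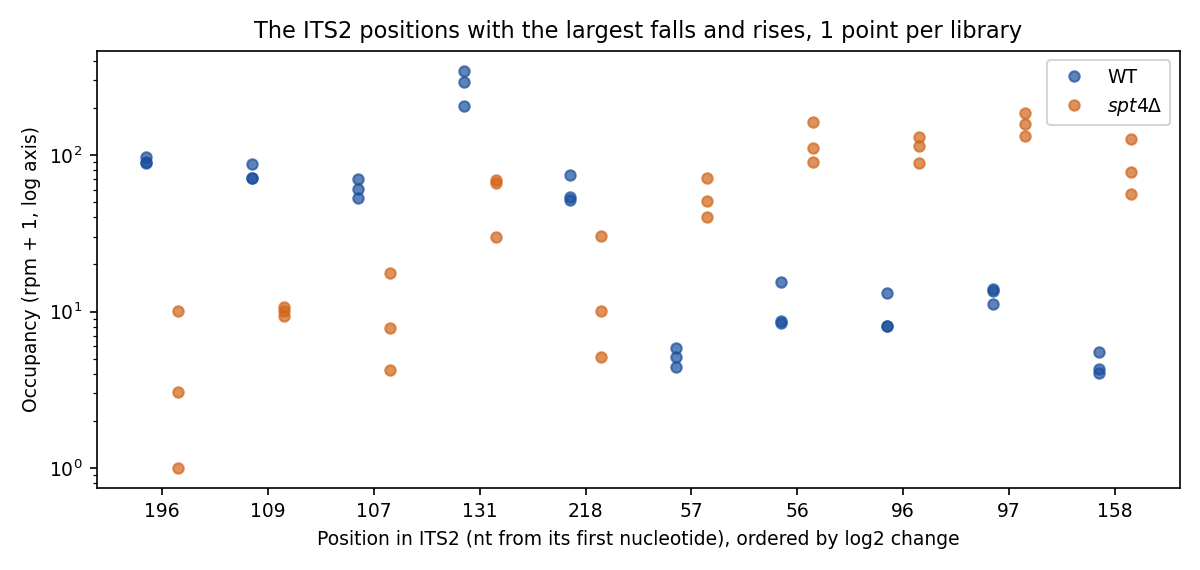
Occupancy as rpm plus 1 on a log axis at the 5 ITS2 positions with the largest falls (left) and the 5 with the largest rises (right), ordered by log2 change, with 1 point per library. WT and *spt4△* points separate at all 10 positions, as the rule that chose them requires, and the 3 *spt4△* points spread most at positions 196, 107 and 218, where reads are few.

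Averaged over bins of 20 positions, shorter at the end of each region, the fall along 5.8S was broad. Of 8 bins in 5.8S, the first 2 lay higher in all *spt4△* libraries and the other 6 lower, while over the gene 33.9% of 345 bins were higher and 34.8% lower without overlap. The first bin had 89.7, 116 and 114 rpm per position in WT and 176, 185 and 168 rpm in *spt4△*. The fourth, positions 61 to 80, had 254, 245 and 248 rpm against 121, 120 and 143 rpm. Among the 12 bins of ITS2, 3 lay higher, 3 lower and 6 overlapped. Lower were positions 1 to 20, 101 to 120 and 121 to 140, the last with 65.9, 75.2 and 83.2 rpm in WT and 37.0, 42.5 and 41.5 rpm in *spt4△*. Higher were 41 to 60, 81 to 100 and 141 to 160, the last with 12.6, 12.1 and 16.3 rpm against 28.7, 25.3 and 25.2 rpm. The bins on either side of the nominal 7S end thus moved in opposite directions. A bin mean could rise while the calls within the bin were mixed. Positions 41 to 60 of ITS2 held 5 higher and 6 lower calls, and positions 21 to 40 of 5.8S held 8 and 5.

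**Figure D5:**
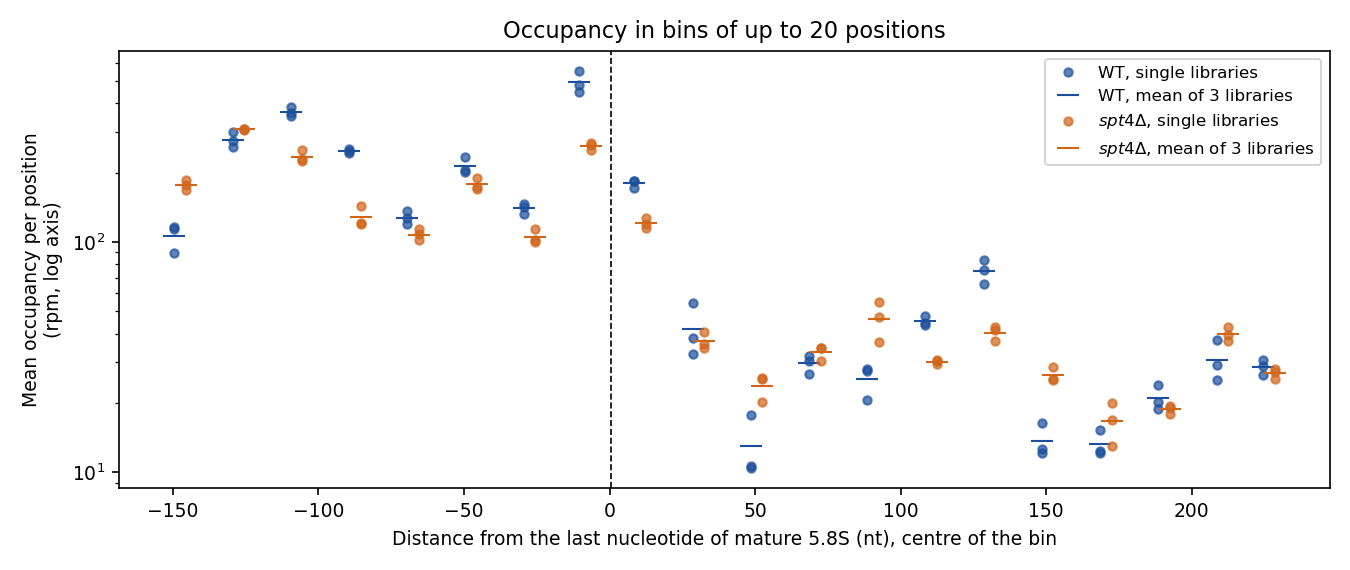
Mean occupancy per position in rpm on a log axis in bins of up to 20 positions, against the distance of the bin centre from the last nucleotide of mature 5.8S. Points are single libraries and dashes means of 3. The *spt4△* points lie above those of WT in the first 2 bins of 5.8S and below them in the other 6, and in ITS2 they lie above in 3 bins and below in 3.

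By the last nucleotide of the RNA, falls were most frequent at A. In 5.8S 21 of 41 A positions were lower and 2 higher, and in ITS2 23 of 56 were lower and 7 higher. Over the gene 32.2% of A positions were lower and 16.7% higher. At U, 10 of 42 positions of 5.8S were higher and 12 lower, and in ITS2 24 of 86 were higher and 9 lower, against 35.1% and 14.1% over the gene. Median occupancy at the A positions of 5.8S came to 188, 215 and 223 rpm in WT and 151, 155 and 137 rpm in *spt4△*, without overlap. At the U positions of ITS2 the median reached 12.9, 12.5 and 16.5 rpm in WT and 21.8, 22.8 and 19.5 rpm in *spt4△*, again without overlap. The median log2 change in ITS2 was −0.59 at A, −0.50 at G, −0.06 at C and 0.41 at U. Over the gene it was −0.16, 0.07, 0.14 and 0.27. Grouped by the next nucleotide, 22 of the 40 positions of 5.8S before an A were lower (55%), with a median log2 change of −0.48, against 25% and −0.09 over the gene. Before a G, 20 of 37 were lower (54.1%), with a median of −0.43, against 22.7% and 0.07 over the gene. Before a C or a U, 22.2% and 23.3% of 5.8S positions were lower, beside 38.5% of all tested 5.8S positions. In ITS2, 11 of 56 positions before an A (19.6%) and 17 of 54 before a G (31.5%) were lower. Higher there were 9 and 14.

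The count of G and C among the 10 nucleotides ending at a position was also compared. In ITS2, 14 of 91 positions with 3 or fewer G or C were lower and 15 higher, 36 of 109 with 4 to 5 were lower and 18 higher, and 6 of 31 with 6 or more were lower and 8 higher. In 5.8S the same classes had 7 of 32 lower and 2 higher, 41 of 90 lower and 15 higher, and 12 of 34 lower and 5 higher. Over the gene 21.8%, 21.6% and 19.4% of positions in these classes were lower and 19.7%, 25.1% and 30.8% higher. Median occupancy in ITS2 at 3 or fewer came to 10.6, 9.92 and 12.9 rpm in WT and 16.6, 16 and 16.3 rpm in *spt4△*. In 5.8S the lowest medians were likewise at 3 or fewer, with 54.0, 62.7 and 62.1 rpm in WT and 41.5, 58.1 and 61.8 rpm in *spt4△*. There the strains overlapped.

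Profiles of the same strain ranked positions alike in 5.8S and less so in ITS2. Over 5.8S, Spearman's rho was 0.987 to 0.992 for pairs of WT libraries, 0.956 to 0.974 for pairs of *spt4△* libraries and 0.854 to 0.912 for mixed pairs. Over ITS2 the same pairs gave 0.952 to 0.966, 0.727 to 0.798 and 0.413 to 0.524. These are descriptions over 156 and 231 positions that share one sequence within each library, and the lower values within *spt4△* go with its lower depth, whose part was not tested. Between strains, rho lay below every value within either strain in both regions.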

How the data were processed

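NET-seq reads of Pol I came from 3 WT and 3 *spt4△* libraries. The authors removed duplicate reads by an 8-base molecular identifier, trimmed the linker with cutadapt 1.12, aligned to assembly R64-1-1 with STAR 2.7.1a, counted read ends per position with bedtools 2.26.0 and added the counts of both 35S copies. The deposited values are rpm (RPM): each count relative to the library's total, which by the values covers positions 1 to 6739. The authors' columns with a ratio, a change of means and a p-value were not used. The base column equals the reference at 6858 of 6858 positions.

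Values are whole multiples of 1 step in 99.97% of 41148 cases (tolerance 0.01 read), which gave the reads per library. For each position, log2(rpm + 1) was fitted on strain alone by limma 3.58.1 (R 4.3.3, eBayes with trend). No low values were filtered. A call needed a p under 0.05 after Benjamini-Hochberg adjustment over 6848 positions. At low positions, log2 changes of rpm + 1 can lie on either side of those from the reads. For position 158 of ITS2 the fit gave 4.17 and edgeR on the reads 4.58. For position 196 they gave −4.87 and −4.48. Shares and ratios were compared by two-sided exact permutation tests. The limma fit and edgeR were tested on simulated data. p-values set the difference between the strains against the variation among these libraries only. Other steps ran in Python 3.11.15 (scipy 1.17.1, pandas 2.3.3, numpy 2.4.6).

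Regions, lists and tests were chosen with earlier results of these data known. In each region the rule named the 5 highest positions per strain and the first and last position. It also named the 5 largest changes in each direction among called positions that do not overlap and lie above the region's median, those within 10 of the mature end, those without reads and the highest near each nominal precursor end. Any other position was picked with its values in view. Alternatives used edgeR 4.0.16, DESeq2 1.42.0, other pseudocounts, scalings and filters, a replicate block, and each replicate left out.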

Additional observations from a re-analysis of the deposited data

How the results depend on the processing

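The *spt4△* libraries limit ITS2, with a median of 5.5 to 9 reads per position. Of the 4 counts of called positions, scaling to the sum over 5.8S and ITS2 changed 3 by over 1.5 times: in 5.8S 51 were higher and 32 lower, and in ITS2 31 were lower. This follows from the scaling, which sets the 2 regions equal between strains. With 1 library left out, 13 to 24 positions of 5.8S were higher and 48 to 61 lower, and 34 to 50 of ITS2 higher and 31 to 57 lower. Fewer libraries entered these fits. In the other alternatives the 4 counts stayed within 1.5 times. Without boundary positions, the difference in the share of the first 116 positions of ITS2 became 6.14 points in place of −1.08. By medians over positions, ITS2 relative to the gene's median position differed by 0.57 points in place of a fall. The cause was not tested in either case. The other 8 shares and ratios kept their sign under every alternative run. The median log2 change of ITS2 turned from −0.03 to 0.02 with a pseudocount of 10, and to 0.05 with a mean of at least 10 rpm. It was also 0.05 by edgeR on the reads, 0.03 without WT replicate 3 and 0.002 without the top 0.5% of positions. Position 1 of 5.8S, not called, turned from 0.13 to −0.62 on the log2 scale with a pseudocount of 0.1. It was −0.17 without *spt4△* replicate 1 and −0.44 without *spt4△* replicate 3. Of the 41 named positions that were tested, 9 lost their call under the scaling to 5.8S and ITS2 (149, 151, 152 and 153 of 5.8S and 2, 3, 6, 8 and 9 of ITS2), positions 2 and 9 of ITS2 also without single libraries, and none changed direction while called.

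No pairing by replicate number was seen: deviations of same-numbered libraries correlated at 0.011, 0.021 and −0.053. Whether counting error at the low depth of *spt4△* hides a pairing was not tested. With the replicate number as a block, 19 positions of 5.8S were higher and 60 lower, and 42 of ITS2 higher and 57 lower. For the shares and ratios the block leaves the differences as they are, and a sign-flip test of 3 pairs cannot go below 0.25.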
